A study of Paralichthys olivaceus with 6 samples.

Results

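The genes described are 5 of the 22498 genes in the deposited tables of the ocular-side skin of Japanese flounder (Paralichthys olivaceus), chosen by gene ID for their part in mineralization and the extracellular matrix. They are PHOSPHO1 (GS_010021), ENTPD5 (GS_017609), CTGF (GS_008315), BMP1 (GS_012501) and a COL1A2 row (GS_000465). The match of that last row is a rabbit COL1A2 entry marked as a fragment, and the row is called the COL1A2 fragment below. The word describes the rabbit entry and not the flounder gene. The names are matches to proteins of other species. The study had called these genes between albino and normally pigmented fish on the same libraries, so every difference between the groups below is a description and not a test of the choice. The mRNA was sequenced from 3 albino fish (PO_alb1 to PO_alb3) and 3 normally pigmented fish (PO_con1 to PO_con3) that were full sibs and 5 months old, and each fish gave 1 library. Albino fish are those that lack pigment on the ocular side, and the labels name no allele, strain or treatment. The study compared the groups to find genes that go with the loss of pigment.

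The skin of flounder carries scales, thin plates of mineralized collagen that are laid down in the dermis by cells akin to osteoblasts. Mineral forms first in and around small vesicles shed into the matrix, where enzymes release phosphate that joins with calcium. PHOSPHO1 is a phosphatase that frees phosphate from phospholipid head groups inside such vesicles, and ENTPD5 is a nucleoside diphosphatase that osteoblasts of zebrafish need for mineralization. CTGF is a secreted matricellular protein that answers to growth factors and tension, BMP1 is the proteinase that trims the C-terminal end of fibrillar procollagens, and COL1A2 is a chain of type I collagen, the main fibre of dermis and scale.

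The total counts per library were 17905084 to 18631484 in albino and 18232951 to 20025047 in normal fish. The TMM scaling factors, which correct for library composition, were 0.791 to 1.05 in albino and 0.879 to 1.27 in normal fish, with PO_alb3 lowest and PO_con3 highest. Summed normalized counts of 3 keratins, markers of the epidermis, were 8355 to 13761 in albino and 23692 to 40306 in normal fish. Those of 4 muscle markers were 33906 to 48086 in albino and 12387 to 24936 in normal fish, so the samples labelled skin also held muscle RNA. Those of 5 melanophore markers were 19.2 to 61.9 in albino and 912 to 1263 in normal fish, with TYR at 0 counts in PO_alb1. In bulk skin, fewer cells of a type and less RNA per cell cannot be told apart. All 3 marker sums separated the groups. The markers come from the study's own list of called genes on these libraries, so this separation is only a description. Most of the keratin sum was KRT13 GS_014679 (13717 in PO_alb1), and most of the muscle sum was DES (32220 in PO_alb1). The part of the marker sums in the results below was not tested.

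In the levels by fish, 4 of the 5 genes were lower and the COL1A2 fragment was higher in every albino fish than in any normal fish. Groups without overlap of this kind were found for 13.2% of all genes tested, and since the genes were chosen on this contrast the count is only a description. PHOSPHO1 had normalized counts of 171, 234 and 139 in PO_alb1, PO_alb2 and PO_alb3, against 320, 347 and 404 in PO_con1, PO_con2 and PO_con3. The lowest normal fish stood 1.37-fold above the highest albino fish, PO_alb2. The log2 fold change of albino over normal was -0.98 (SE 0.21), with an adjusted p of 0.114 in edgeR's quasi-likelihood test.

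ENTPD5 had normalized counts of 85.8, 157 and 62.7 in PO_alb1, PO_alb2 and PO_alb3, against 247, 389 and 382 in PO_con1, PO_con2 and PO_con3. PO_alb2 was again the highest albino fish and PO_con1 the lowest normal fish, and the groups stood 1.57-fold apart at their nearest values. Its log2 fold change was -1.72 (SE 0.34, adjusted p = 0.0778 from edgeR). The test was passed when PO_alb2 was left out (log2 fold change -2.18, adjusted p = 0.0241 from edgeR), but not without any other single fish (0.0741 to 0.326).

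CTGF had normalized counts of 342, 175 and 368 in PO_alb1, PO_alb2 and PO_alb3, against 490, 572 and 682 in PO_con1, PO_con2 and PO_con3. Here PO_alb2, the albino fish highest in both mineralization enzymes, was the lowest, and the other albino fish lay close to each other. The log2 fold change was -0.98 (SE 0.28, adjusted p = 0.28 from edgeR), the same size as that of PHOSPHO1 with a larger error.

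BMP1 was close to the limit of detection, with 0, 2 and 1 reads in PO_alb1, PO_alb2 and PO_alb3, against 10, 19 and 26 reads in PO_con1, PO_con2 and PO_con3. It was the only one of the 5 genes removed by the filter on low counts, so no test was made. From 3 reads against 55, the level in normal fish was 16.2 times that in albino fish after scaling, with a 95% counting interval (Clopper-Pearson) of 5.25 to 80.7. The log2 ratio of albino over normal was -4.01 with all fish, -3.38 without PO_alb1 and -4.93 without PO_alb2. Such intervals cover counting error only. Per length, BMP1 reached an RPKM of at most 0.041 in albino and 0.545 in normal fish.

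The COL1A2 fragment had normalized counts of 61.9, 46.0 and 70.6 in PO_alb1, PO_alb2 and PO_alb3, against 10.6, 8.92 and 17.7 in PO_con1, PO_con2 and PO_con3. All albino fish were above all normal fish, with a gap of 2.59-fold between the nearest values. Its log2 fold change was 2.22 (SE 0.33, adjusted p = 0.0242 from edgeR), which made it the only 1 of the 4 tested genes to pass, against 1.04% of all genes tested that were called in either direction and 0.129% that were called higher. The call was lost without PO_alb1 (adjusted p = 0.0942), PO_alb3 (0.106), PO_con1 (0.0743) or PO_con2 (0.154), and the log2 fold change stayed between 2.02 and 2.60 without each fish in turn. It was also lost when only library totals were used for scaling (adjusted p = 0.0925) and, in the fit of log2 RPKM with a pseudocount of 0.1, at an adjusted p of 0.0637 from limma.

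**Figure D1:**
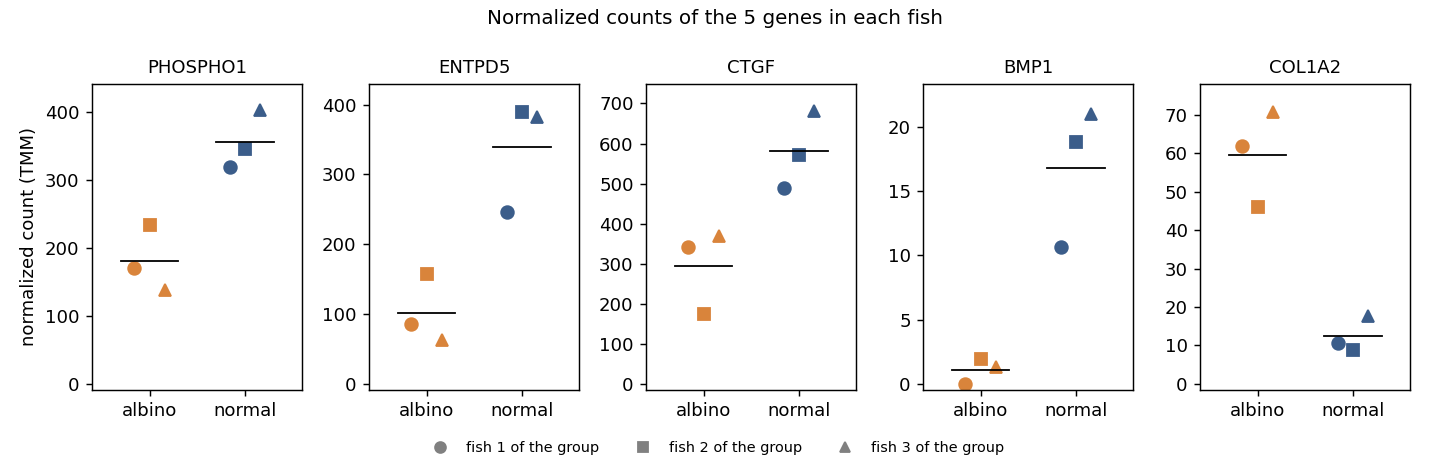
Normalized counts (TMM) of each gene by fish, on linear axes of their own, with albino fish left of normal fish. Points are single fish and the lines are group means; for PHOSPHO1 the albino fish sit between 139 and 234 and the normal fish between 320 and 404.

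Levels were compared between genes only per length, as RPKM. In albino fish the highest of the 5 was CTGF with 14.6 ± 4.62 RPKM (SD, n = 3), beside PHOSPHO1 with 12.4 ± 4.71 RPKM (SD, n = 3), and these did not differ beyond their spread. ENTPD5 followed with 4.57 ± 2.63 RPKM and the COL1A2 fragment with 2.60 ± 0.384 RPKM (SD, n = 3 each), again within the spread of ENTPD5. In normal fish CTGF had 32.95 ± 11.6 RPKM, PHOSPHO1 26.7 ± 8.26 RPKM and ENTPD5 16.6 ± 6.20 RPKM (SD, n = 3 each). CTGF and PHOSPHO1 differed by less than their spread over fish, although within each normal library CTGF was the higher (1.15 to 1.27 times PHOSPHO1). The mean of ENTPD5 lay below all 3 normal values of PHOSPHO1. The COL1A2 fragment, with 0.634 ± 0.356 RPKM, and BMP1, with 0.377 ± 0.178 RPKM (SD, n = 3 each), were far below these in normal fish and did not differ beyond their spread over fish. The fragment was above BMP1 in each normal library, on 9 to 22 reads of the fragment and 10 to 26 of BMP1. The RPKM and counts give coding lengths of 768 bases for PHOSPHO1, 1185 for ENTPD5, 1020 for CTGF, 2616 for BMP1 and 1155 for the COL1A2 row. The coding sequence of a whole type I collagen chain is several times as long, and no other row of the type I collagens carries a name in the sources used here, so the main COL1A2 gene was not analysed here.

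Whether these genes varied more within the groups than between them was read from log2 CPM, the log2 of TMM-scaled counts relative to library size, with a prior count of 2. For each gene the SD over fish of a group, pooled over both groups, was set beside the difference of the group means. For PHOSPHO1 the within-group SD was 0.292 and the difference, albino minus normal, was -0.998, or 3.42 within-group SDs. For ENTPD5 they were 0.535 and -1.79, or 3.34 within-group SDs. For CTGF they were 0.446 and -1.03, or 2.31 within-group SDs. The COL1A2 fragment had a within-group SD of 0.382 and a difference of 2.12, or 5.55 within-group SDs.

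The within-group SD was thus larger than the difference for 0 of the 4 genes, beside 66.5% of all genes tested, and nothing is read from this count because the difference chose the genes. The share of the sum of squares that lay between the groups was 81.4% for PHOSPHO1, 80.7% for ENTPD5, 66.7% for CTGF and 92.0% for the COL1A2 fragment, with a median of 15.4% over all genes. The spread over fish was nevertheless not small. Within-group SDs were smaller than that of ENTPD5 in 88.9% of all genes, than that of CTGF in 81.1%, than that of the COL1A2 fragment in 72.6% and than that of PHOSPHO1 in 56.7%.

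PO_alb2 and PO_con3 were the fish whose removal moved this number of within-group SDs by over 1.5 times. Without PO_alb2 the difference was 6.49 within-group SDs for PHOSPHO1, 6.11 for ENTPD5 and 3.50 for CTGF. Without PO_con3 it was 8.98 within-group SDs for the COL1A2 fragment. With library totals in place of TMM, the within-group SD of PHOSPHO1 was 0.512 and its difference 2.21 within-group SDs.

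**Figure D2:**
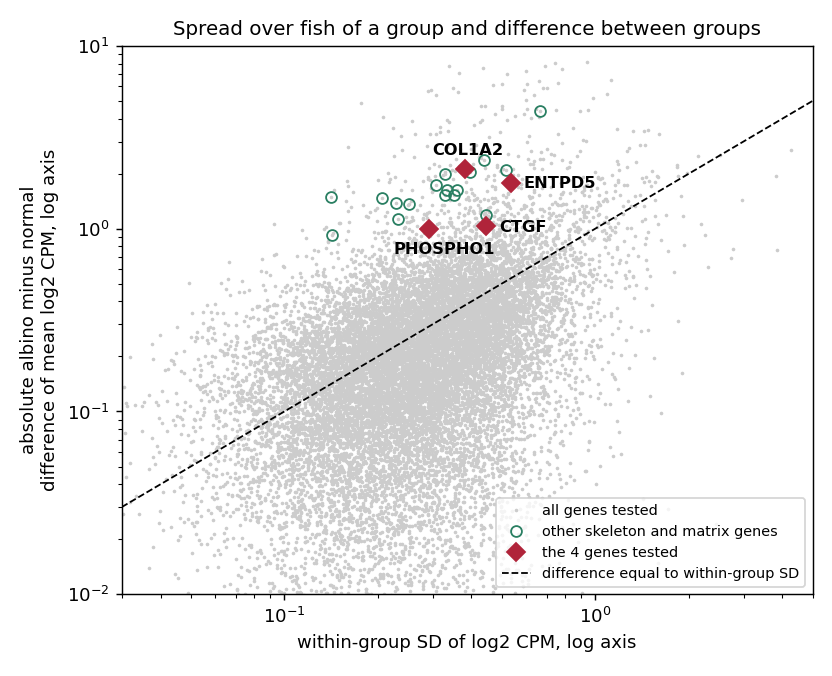
Absolute difference of the mean log2 CPM of albino and normal fish (vertical) against the within-group SD of log2 CPM (horizontal), both on log axes, for all genes tested (grey), 17 other skeleton and matrix genes (open circles) and the 4 tested genes (diamonds). All 4 diamonds lie above the dashed line of equal size, ENTPD5 farthest right at a within-group SD of 0.535; genes beyond the axis limits are not drawn.

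The 3 tested genes that were lower in albino skin also spread more, on the log2 scale, over the albino than over the normal fish. As RPKM their SD was smaller in albino fish, where their means were lower. The SD of log2 CPM over fish was 0.377 in albino and 0.170 in normal fish for PHOSPHO1. It was 0.661 in albino and 0.370 in normal fish for ENTPD5, and 0.585 in albino and 0.237 in normal fish for CTGF. Over all genes tested the medians were 0.226 in albino and 0.251 in normal fish.

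Counting alone would give these 3 genes an SD of 0.091 to 0.164 in albino and 0.0594 to 0.0789 in normal fish, so the spread was larger than counting error in both groups. For the COL1A2 fragment, with 41 reads in all over the normal fish, the SD of 0.446 in normal fish was close to the 0.422 that counting alone would give, and its depth cannot show how normal fish differed among themselves. PO_alb2 set much of the albino spread. Without that fish the albino SD was 0.311 for ENTPD5 and 0.0748 for CTGF, both below the SD over normal fish, while that of PHOSPHO1 was 0.210 and stayed above it. With library totals the albino SD of CTGF was also below the normal one, at 0.489 against 0.504. With 3 fish a group, the spreads of the groups were not tested against each other.

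The genes did not all move together over the albino fish. Covariation was described by each library's deviation of log2 CPM from its group mean, over 6 libraries that share their scaling, with no p. The deviations within a group are tied through its mean, so fewer than 6 values are free, and counts of libraries on the same side are only a description. PHOSPHO1 and ENTPD5 deviated alike (Pearson r = 0.94), and 1.97% of all genes tested had an r with PHOSPHO1 at least as high. PHOSPHO1 and ENTPD5 deviated to the same side in 5 of 6 libraries, the exception being PO_con2, at -0.03 and 0.23. Both were above the group mean in PO_alb2, by 0.40 and 0.72, and below it in PO_alb3, at -0.35 and -0.58. CTGF took the other direction in these fish, at -0.67 in PO_alb2 and 0.39 in PO_alb3. With library totals in place of TMM, PO_alb2 was still the lowest albino fish in CTGF, but PO_alb1 and not PO_alb3 was the highest.

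The r of CTGF was -0.65 with PHOSPHO1 and -0.63 with ENTPD5 over all 6 libraries. Of all genes tested, 81.7% had an r with PHOSPHO1 at least as high, and 81.3% had one with ENTPD5. Negative r of this size were thus not rare. Over the normal fish, however, CTGF and PHOSPHO1 deviated alike, at -0.23 and -0.15 in PO_con1 and at 0.24 and 0.19 in PO_con3. CTGF and the COL1A2 fragment deviated to the same side in 6 of 6 libraries (r = 0.74), a likeness reached by 5.30% of all genes. The deviations of the fragment over the normal fish, on 9 to 22 reads each, were close in size to counting error (SD 0.446 against 0.422). This r is thus not well founded. The r of the COL1A2 fragment was -0.23 with PHOSPHO1 and -0.39 with ENTPD5. An r at least as high was found for 59.0% and 67.8% of all genes.

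**Figure D3:**
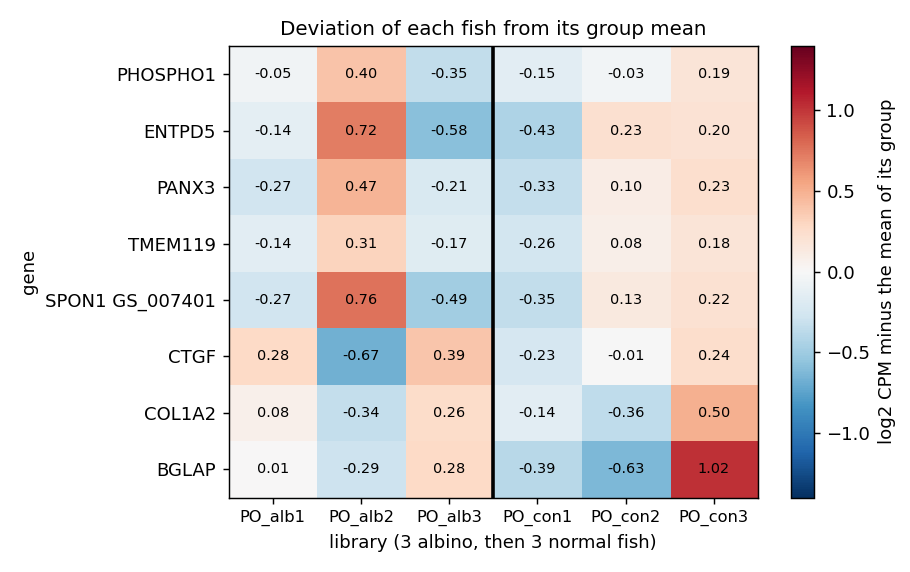
Deviation of log2 CPM from the mean of its group for 4 of the genes and 4 other skeleton and matrix genes (rows) in the 3 albino and then the 3 normal libraries (columns), with red above and blue below the mean. PO_alb2 is at 0.40 for PHOSPHO1 and 0.72 for ENTPD5 but at -0.67 for CTGF.

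Ratios of RPKM within a library do not depend on the scaling of libraries. The ratio of CTGF over PHOSPHO1 was 1.51, 0.565 and 2.00 in PO_alb1, PO_alb2 and PO_alb3, against 1.15, 1.24 and 1.27 in PO_con1, PO_con2 and PO_con3. It ranged 3.55-fold over albino fish and 1.10-fold over normal fish, with PO_alb2 below and the other albino fish above all normal fish. Both genes thus kept close to 1 proportion in the normal fish, where each alone differed more. Per library total both rose from PO_con1 to PO_con3, an order found for 56.3% of all genes tested. How many other gene pairs kept as steady a ratio was not determined.

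The ratio of CTGF over ENTPD5 ranged 5.27-fold over albino fish (1.30 in PO_alb2 to 6.83 in PO_alb3) and 1.35-fold over normal fish. PHOSPHO1 over ENTPD5 was 3.07, 2.30 and 3.41 in PO_alb1, PO_alb2 and PO_alb3, against 2.00, 1.37 and 1.63 in PO_con1, PO_con2 and PO_con3. Its groups did not overlap, at 2.30 in PO_alb2 against 2.00 in PO_con1, and ENTPD5 was the lower of the pair in every library. Both genes were chosen on this contrast, with log2 fold changes of -0.98 and -1.72, and the share of other gene pairs without overlap was not taken. Nothing is therefore read from this separation.

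**Figure D4:**
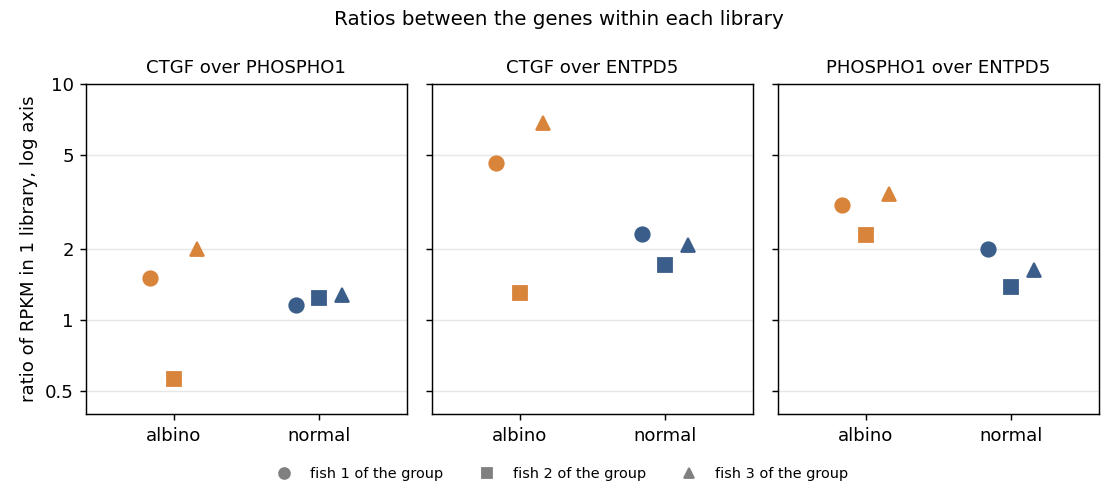
Ratio of RPKM of pairs of genes within each library, on a shared log axis, with albino fish left of normal fish and 1 point for each fish. CTGF over PHOSPHO1 lies between 0.565 and 2.00 in albino fish and between 1.15 and 1.27 in normal fish.

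Among normal fish, PHOSPHO1, CTGF and BMP1 shared 1 order, with PO_con3 highest and PO_con1 lowest. That order was found for 24.8% of all genes tested with TMM scaling and for 56.3% with library totals. With TMM the 4 muscle markers all had the opposite order, which with library totals held only for TNNT2 and MUSTN1. The opposite order was found for 24.1% of all genes tested with TMM and for 5.57% with library totals. The TMM-scaled sum of the muscle markers was 24936, 22307 and 12387 in PO_con1, PO_con2 and PO_con3. The keratin sum was 23692, 26779 and 40306 in PO_con1, PO_con2 and PO_con3.

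Among albino fish the muscle sum was 33906, 39445 and 48086 in PO_alb1, PO_alb2 and PO_alb3 with TMM, and 35176, 40928 and 37713 with library totals. The albino fish with most muscle RNA was thus PO_alb3 under TMM and PO_alb2 under library totals. PHOSPHO1 and ENTPD5 were highest in PO_alb2 and lowest in PO_alb3 under both scalings. That order was found for 22.4% of all genes tested with TMM and for 40.0% with library totals. CTGF and the COL1A2 fragment were highest in PO_alb3 under TMM and in PO_alb1 under library totals. The part of tissue make-up in the 5 genes' levels was not tested.

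The other skeleton and matrix genes with a name come from the study's own list of called genes on these libraries, so their counts are no independent evidence of direction. Of 17 such genes, 15 were lower in albino skin, 1 was higher and 1 did not pass edgeR's test, with a median log2 fold change of -1.56 beside 0.01 over all genes tested. The background was 0.91% of all genes called lower. Of the 169 genes called in either direction, 148 were lower. A list taken from called genes thus holds mostly lower genes, and nothing is read from the 15 of 17. The number called lower was 2 without PO_alb1, 5 without PO_alb2, 0 without PO_alb3, 11 without PO_con1, 1 without PO_con2 and 6 without PO_con3, and 3 with library totals. None of the 17 was called in all 6 fits without 1 fish, and SMPD3, HHIP, SOSTDC1, P4HB and MMP9 were called in none of them, while the sign of all 17 held in each. BGLAP was called most often, in 4 of the 6 fits, and lost its call without PO_alb2 or PO_alb3 (highest adjusted p = 0.0574 from edgeR).

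All 4 genes of mineralization and osteoblasts fell. Osteocalcin (BGLAP), a calcium-binding protein of bone matrix, had normalized counts of 3.99, 2.88 and 5.23 in PO_alb1, PO_alb2 and PO_alb3, against 92.5, 78.3 and 250.1 in PO_con1, PO_con2 and PO_con3. PO_con3 was far above the other normal fish, and the groups did not overlap. The log2 fold change of BGLAP was -5.12 (SE 0.62, adjusted p = 0.00906 from edgeR). Pannexin 3 (PANX3), a channel of osteoblasts, had 77.8, 131 and 81.0 normalized counts in PO_alb1, PO_alb2 and PO_alb3, against 232, 314 and 344 in PO_con1, PO_con2 and PO_con3. Its log2 fold change was -1.61. TMEM119, a membrane protein of osteoblasts in mice, had one of -1.39, and SMPD3, a sphingomyelinase that cartilage and bone of mice need for mineralization, one of -2.20.

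Within the groups, PANX3 and TMEM119 deviated with PHOSPHO1 (r = 0.87 and 0.88) and with ENTPD5 (r = 0.93 and 0.94), and like these they were highest among albino fish in PO_alb2. BGLAP did not, with an r of 0.07 with PHOSPHO1 and -0.10 with ENTPD5. Its r with the COL1A2 fragment was 0.95, on 3 to 4 reads of BGLAP in each albino fish and 9 to 22 reads of the fragment in each normal fish, too few to read a likeness from. SMPD3 had an r of -0.20 with PHOSPHO1 and -0.19 with ENTPD5, on normalized counts of only 5.23 to 37.2 per library. A high r with PHOSPHO1 was not particular to osteoblast genes. Among genes described below, HHIP had an r of 0.90 with PHOSPHO1 and 0.73 with ENTPD5, and COL11A2 had 0.88 and 0.75.

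Of the 3 modulators of signalling, PTCH1 and HHIP, a receptor and a decoy of hedgehog ligands, fell by 1.56 and 1.15 on the log2 scale. SOSTDC1, a secreted antagonist of BMP and Wnt ligands, had a log2 fold change of 1.62 and passed with all fish (adjusted p = 0.0428 from edgeR). It was called in 0 of the 6 fits without 1 fish (adjusted p = 0.0767 to 0.241) and not with library totals, limma or the replicate block. All 6 matrix proteins fell. Biglycan (BGN), a small proteoglycan of bone and skin, had a log2 fold change of -2.07, the fibril-associated collagen COL14A1 one of -1.81 and the fibrillar collagen COL11A2 one of -1.54. The matrix protein spondin 1, SPON1 GS_007401, had one of -2.08 and deviated with ENTPD5 (r = 0.98) and PHOSPHO1 (r = 0.95). These r rest on only 9 to 32 reads of SPON1 GS_007401 in each albino fish. A second SPON1 row, GS_005856, had a mean normalized count of 1009 in normal fish, against 81.5 for GS_007401. Its log2 fold change was -0.94, and its r was lower, at 0.74 with ENTPD5 and 0.65 with PHOSPHO1.

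Of the 4 matrix enzymes, 3 fell and 1 did not pass. Among them XYLT1, which starts the sugar chains of proteoglycans, had a log2 fold change of -2.51. P4HB, by its name a subunit of the enzyme that hydroxylates collagen prolines, had one of -1.67. Each albino fish gave only 15 to 30 reads of XYLT1 and 11 to 27 of P4HB. The gelatinase MMP9 did not pass (log2 fold change -1.16, adjusted p = 0.179 from edgeR). The COL1A2 fragment and SOSTDC1 were the genes described here that were called higher in albino fish, apart from the muscle marker METTL21C (log2 fold change 1.23).

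**Figure D5:**
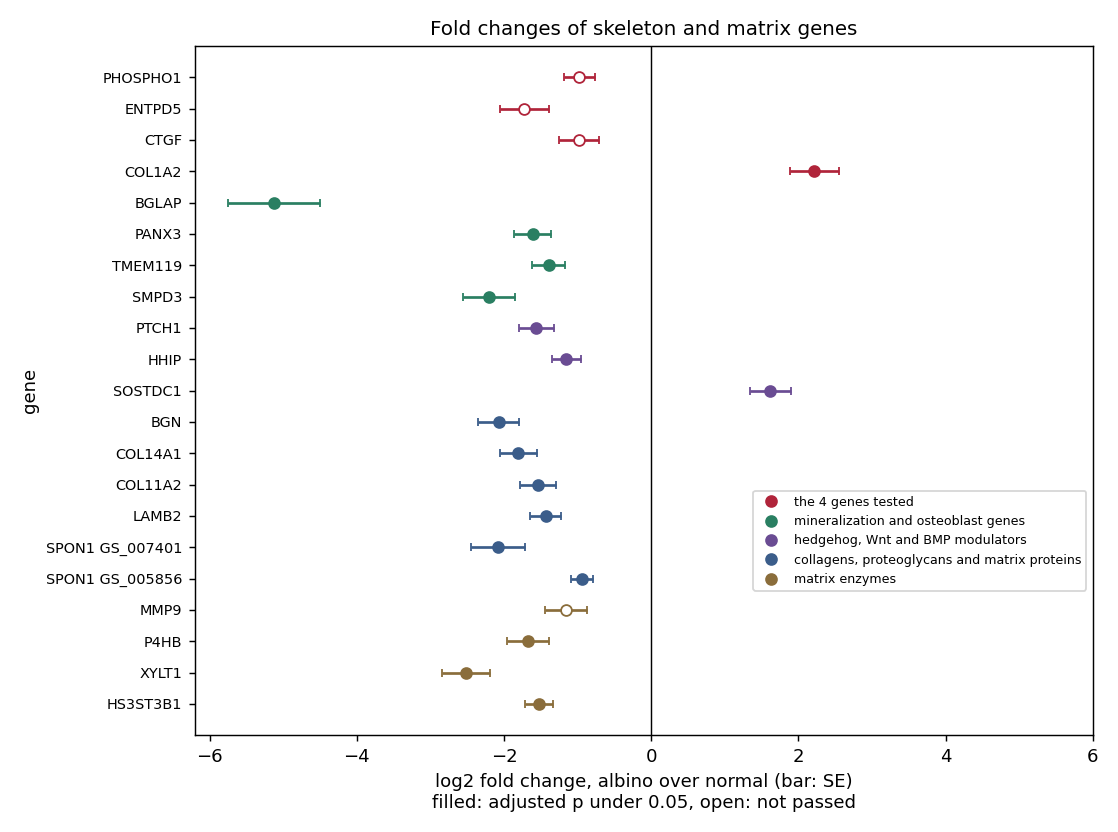
Log2 fold change of albino over normal (horizontal, bars are the SE of the fit) for the 4 tested genes and 17 other skeleton and matrix genes (rows, coloured by list); filled points had an adjusted p under 0.05. PHOSPHO1, ENTPD5 and CTGF are open points below 0, and the COL1A2 fragment stands at 2.22.

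Over 197 other named genes, those most like each gene in their deviations over the 6 libraries were picked by r. For PHOSPHO1 these were the kinase STK17A (r = 0.99), the dynein light chain DYNLRB2 (r = 0.97) and the adhesion protein SDK2 (r = 0.96). For ENTPD5 they were the immune inhibitor VTCN1 (r = 0.98), SPON1 GS_007401 and DYNLRB2 (r = 0.98 each). DYNLRB2 stood near both, as the enzymes stood near each other. By the study's mean counts, DYNLRB2 and SDK2 had few reads in albino fish. SPON1 GS_007401 had 14, 32 and 9 reads in PO_alb1, PO_alb2 and PO_alb3. The r of these 3 genes is thus not well founded.

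For CTGF they were the gap junction protein GJA5 (r = 1.00), the melanosome transporter SLC45A2 (r = 0.96) and the homeobox protein SIX3 (r = 0.95). By the study's mean counts, SLC45A2 and SIX3 had few reads in albino fish, so their r is not well founded. For the COL1A2 fragment they were a putative methyltransferase (GS_020430, r = 1.00), a growth-regulated chemokine alpha homolog (r = 0.98) and the granulin gene GRN (r = 0.97). Here the fragment's own low counts in normal fish set the same limit. GS_020430 also had few reads in albino fish by the study's mean counts. No gene was shared between the 3 nearest of the enzymes and those of the matrix genes. With r of -0.65 to -0.23 between the enzymes and the matrix genes none could be, so nothing is read from this. An r as high as the first was reached by 0.203% of all genes for PHOSPHO1, 0.246% for ENTPD5, 0.0123% for CTGF and 0.00615% for the COL1A2 fragment. Each share includes the picked gene itself, which was picked for its high r, so no strength of likeness is read from these shares.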

How the data were processed

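The mRNA of 6 skin libraries, 3 albino and 3 normal, was analysed. The authors mapped paired reads with TopHat2 2.0.9 on a Bowtie2 2.0.6 index, assembled new transcripts with Cufflinks 2.1.1 and counted reads per gene with HTSeq. The genome build and strand setting are not given in the sources used here, so antisense or overlapping reads cannot be told apart. The deposited read counts are whole and unscaled. The deposited RPKM are those counts divided by gene length and by the library's counted reads. Both tables hold 22498 genes and all their sample columns were used. Lengths were recovered from counts over RPKM, and 99.995% of those of known genes were multiples of 3, so they are called coding lengths. Total counts per library were 17905084 to 20025047.

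Counts were tested in R 4.3.3 with edgeR 4.0.16 (filterByExpr, TMM, quasi-likelihood test, Benjamini-Hochberg over 16260 genes, threshold 0.05), with no covariate. Alternatives used DESeq2 1.42.0, limma 3.58.1 on log2(RPKM + 1) and log2(RPKM + 0.1), other scalings and filters, a robust variance, a replicate block and libraries left out. Plots were made with Python 3.11.15 and matplotlib 3.10.9. With 3 fish on each side, exact permutation gives no p below 0.1.

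The genes and lists were chosen with earlier results of these data known. Named genes are the 5 chosen by ID, the lists, and for each tested gene the 3 named genes with the highest r. The study's own fold changes and p-values entered no fit here, but its calls set which genes are named, and the lists were chosen with fold changes in view. Counts of fish of the same group differed far beyond counting noise (chi-square per degree of freedom 30.4 to 97.0), so each fish counts as 1 replicate. Of the reference's gene IDs, 0 matched those of the tables, so no sequence is shown. A gene of the matrix enzyme list is not reported here. The fish are separate animals of 1 family.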

Additional observations from a re-analysis of the deposited data

How the results depend on the processing

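The signs of the log2 fold changes of PHOSPHO1, ENTPD5, CTGF and the COL1A2 fragment, and of the ratio of BMP1, held under every alternative run. Of all genes, 148 were lower and 21 higher in albino fish with edgeR. DESeq2 called 274 lower and 90 higher, limma 89 lower and 7 higher on log2(RPKM + 1) and 6 higher on log2(RPKM + 0.1), and library totals 7 higher. Without 1 fish the counts were 67 to 138 lower and 2 to 14 higher. Without both PO_alb3 and PO_con3, a choice made after seeing the data, they were 55 lower and 13 higher. The median log2 fold change of all genes was -0.13 with library totals, against 0.01 with TMM.

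With DESeq2, PHOSPHO1 (log2 fold change -0.97, adjusted p = 0.00613) and ENTPD5 (-1.73, adjusted p = 0.000177) passed, beside 274 of all 16260 genes called lower. With no filter on low counts ENTPD5 (-1.72, adjusted p = 0.0475 from edgeR) and BMP1 (-3.84, adjusted p = 0.0409 from edgeR) passed, beside 166 of 20815 genes called lower. In each of these fits 2 of the 5 genes were called lower, against 0 in the main fit. The genes were chosen on this contrast, so these counts are only a description. Without 1 fish 0 to 1 of the 5 genes were called lower and 0 to 1 higher. The call of the COL1A2 fragment was lost with library totals (2.03), with limma on log2(RPKM + 0.1) (1.97) and without both PO_alb3 and PO_con3 (2.45), which left 0 called higher. Without 1 fish the log2 fold change was -1.20 to -0.83 for PHOSPHO1, -2.18 to -1.49 for ENTPD5, -1.17 to -0.71 for CTGF, 2.02 to 2.60 for the COL1A2 fragment and -4.93 to -3.38 for BMP1. Without both PO_alb3 and PO_con3 it was -0.72 for PHOSPHO1, -1.39 for ENTPD5 and -1.04 for CTGF.

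Fish share replicate numbers in the labels, but same-numbered fish did not deviate together (r of -0.17, 0.18 and -0.44 over all genes), so the numbers are not taken as pairs. With the replicate block 53 genes were lower and 4 higher, and 0 of the 5 genes were called higher (the COL1A2 fragment at 2.27, adjusted p = 0.0681 from edgeR).

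The difference between groups in within-group SDs was 2.21 for PHOSPHO1 with library totals and with log2(RPKM + 0.1), and 4.12 and 4.13 for the COL1A2 fragment in these, and it was 9.69 for that fragment and 2.59 for ENTPD5 without both PO_alb3 and PO_con3. Without 1 fish it was 2.90 to 6.49 for PHOSPHO1, 2.79 to 6.11 for ENTPD5, 1.87 to 3.50 for CTGF and 4.61 to 8.98 for the COL1A2 fragment. The cause of these shifts was not tested, and fits without a fish have fewer fish. Depth limits BMP1 (3 reads over albino fish) and the COL1A2 fragment (41 reads over normal fish).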
